A study of Mus musculus with 6 samples.

Results

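The imprinted growth regulators Igf2, Igf2r, Grb10, Cdkn1c, Dlk1, Plagl1 and Rasgrf1 were examined in mouse quadriceps muscle for DNA methylation after exercise training. The members were taken from the deposited table by gene: a region belonged to the set when its RefSeq transcript was one of these 7 genes, whatever its methylation. This gave 9 of 10755 regions (3 for Igf2, 1 for each other gene) and 202 of 268725 cytosine positions. Each region was 3000 bp long (mm9) and each position is given below by its base within the region, counted from 1 at the lowest coordinate.

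Genomic DNA came from quadriceps of C57BL/6 mice, 3 samples of exercised mice that had trained for 4 weeks on a motorised treadmill and 3 samples of sedentary mice without this training. Muscle was sampled for DNA 3 hours after training ended. All mice were of the same inbred strain, so the maternal and the paternal allele could not be told apart, and whole muscle holds several cell types, so that a shift in cell types and a change within cells cannot be told apart. Methylation was measured by reduced representation bisulfite sequencing (RRBS), in which DNA is cut at CpG-containing sites and treated with bisulfite, so that unmethylated cytosines read as T. The labels do not say that the 3 samples of a group were separate animals, and the p-values therefore measure the spread between these samples.

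Imprinted genes are expressed mainly from 1 parental allele, and many lie near a differentially methylated region in which only 1 parental allele is methylated. In mixed reads from both alleles such a region stands at an intermediate level. The set holds both arms of growth control before and after birth. Igf2, Dlk1, Plagl1 and Rasgrf1 are expressed from the paternal allele and mostly promote growth or hold cells in a progenitor state. Igf2r, Grb10 and Cdkn1c are expressed from the maternal allele in most mouse tissues and restrain growth. The methylated allele lies at the promoter itself for Igf2r, Cdkn1c and Plagl1, whereas for Rasgrf1 and Dlk1 the control region lies away from the promoter and for Grb10 at an internal promoter used in neurons.

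The measured cytosines could be placed in promoter sequence for 3 of the genes. RefSeq promoter entries (GRCm38.p6, 300 bases around each annotated start) were available for 6 of the 7 genes, in 10 entries. The spacing of the measured positions was laid along each entry, and a placement was kept when at least 10 positions fell inside and all of them lay on a CpG. Igf2r had 20 of its 28 positions in its promoter, 81 to 155 bases upstream of the start. Grb10 had 20 of 50 positions, 70 to 246 bases upstream, and the Igf2 region of NM_001122737 had 16 of 28 positions, 145 to 249 bases upstream. Igf2 had several entries, which were tried by gene. The placed starts of Igf2r and Grb10 lay at the same base of their regions. The matched Igf2 start lay at that base in the overlapping region of NM_010514, and not in that of NM_001122737. By this layout the printed Igf2 promoter is that of NM_010514, and it lies upstream of the start of NM_001122737. For each of these position sets the placement was the only 1 among all 32817 promoters. They are shown because they carry the contrast between an intermediate promoter (Igf2r) and nearly unmethylated ones (Grb10, Igf2). All are given 5′ to 3′ on the minus strand, which is the strand of these genes, and capitals mark the CpGs with a measured cytosine (11 of 34 for Igf2r, 13 of 45 for Grb10 and 12 of 24 for Igf2).
Igf2r, chr17:12769657-12769956: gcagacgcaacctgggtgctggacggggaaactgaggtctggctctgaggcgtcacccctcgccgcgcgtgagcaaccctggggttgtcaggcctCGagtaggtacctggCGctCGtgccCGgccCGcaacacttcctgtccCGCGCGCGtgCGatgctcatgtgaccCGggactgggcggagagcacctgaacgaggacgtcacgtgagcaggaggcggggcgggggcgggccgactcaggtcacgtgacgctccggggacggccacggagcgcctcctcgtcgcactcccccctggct
Grb10, chr11:12037371-12037670: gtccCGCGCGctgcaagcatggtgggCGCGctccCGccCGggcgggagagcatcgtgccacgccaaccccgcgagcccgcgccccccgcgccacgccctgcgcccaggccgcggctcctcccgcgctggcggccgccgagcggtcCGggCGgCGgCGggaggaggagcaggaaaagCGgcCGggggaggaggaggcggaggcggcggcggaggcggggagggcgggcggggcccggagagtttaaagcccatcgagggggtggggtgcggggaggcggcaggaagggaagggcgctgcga
Igf2, chr7:142658755-142659054: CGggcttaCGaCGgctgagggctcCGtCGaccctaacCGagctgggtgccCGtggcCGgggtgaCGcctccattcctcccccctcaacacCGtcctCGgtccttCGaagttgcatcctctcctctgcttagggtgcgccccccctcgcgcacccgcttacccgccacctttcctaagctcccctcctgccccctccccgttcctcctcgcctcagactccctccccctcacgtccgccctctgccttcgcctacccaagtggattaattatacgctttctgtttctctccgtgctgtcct

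In these promoters the measured cytosines fell into 2 kinds. Within the 4-base motifs CCGG and TCGA, which read the same on both strands, each hold a CpG and are the cut sites of the enzymes MspI and TaqI, levels were often far above those of the neighbours. In the Igf2r promoter 5 positions inside these motifs had a median level of 74.5% (25.0% to 94.7%), against 34.3% (20.8% to 43.3%) at the 15 other positions. In Grb10 the 4 positions inside them ranged from 10.3% to 99.2%, against a median of 1.5% (0% to 14%) at the 16 others. In Igf2 the 5 positions inside them ranged from 11.9% to 94.2%, against a median of 2.58% at the 11 others, of which 1 stood at 91.3% beside the edge of the printed window. CCGG was present in 52.8% and TCGA in 22.0% of all promoters, and the sources used here do not name the enzyme of these libraries.

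Positions of this kind are called locally discordant below: their mean level differed by over 30 percentage points from the median of the other positions within 50 bp. They made up 34 of the 202 member positions, and 21 of the 34 stood over 90%. In the whole table they made up 21.2% of positions. In the printed promoters 3 of 3 such positions in Igf2r, 2 of 2 in Grb10 and 4 of 5 in Igf2 lay in CCGG or TCGA. The definition was chosen after these values were seen, and the cause of the high values was not tested. Since such positions enter the level of a region, that level (methylated reads over all reads) is given below with and without them.

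No member region passed the test between exercised and sedentary samples. In edgeR's quasi-likelihood test on methylated and unmethylated counts, 0 of the 9 regions had an adjusted p under 0.05 (0% of all 10021 tested regions) and 0 had an unadjusted p under 0.05 (2.37% of all regions). The smallest unadjusted p was 0.160, for the Igf2 region of NM_010514, and every member had an adjusted p of 1.0. In 0 of the 9 regions did the 3 exercised samples lie all on 1 side of the 3 sedentary samples (7.25% of all regions). Differences ran from -4.07 to 1.83 points, 4 higher and 5 lower in exercised samples (61.0% of all regions were higher), with standard errors from 0.949 to 5.73 points. Their median was -0.125 points, beside 0.390 points over all regions. An effect smaller than these errors was not detectable here, and with adjustment over 10021 regions larger effects could be missed as well.

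**Figure D1:**
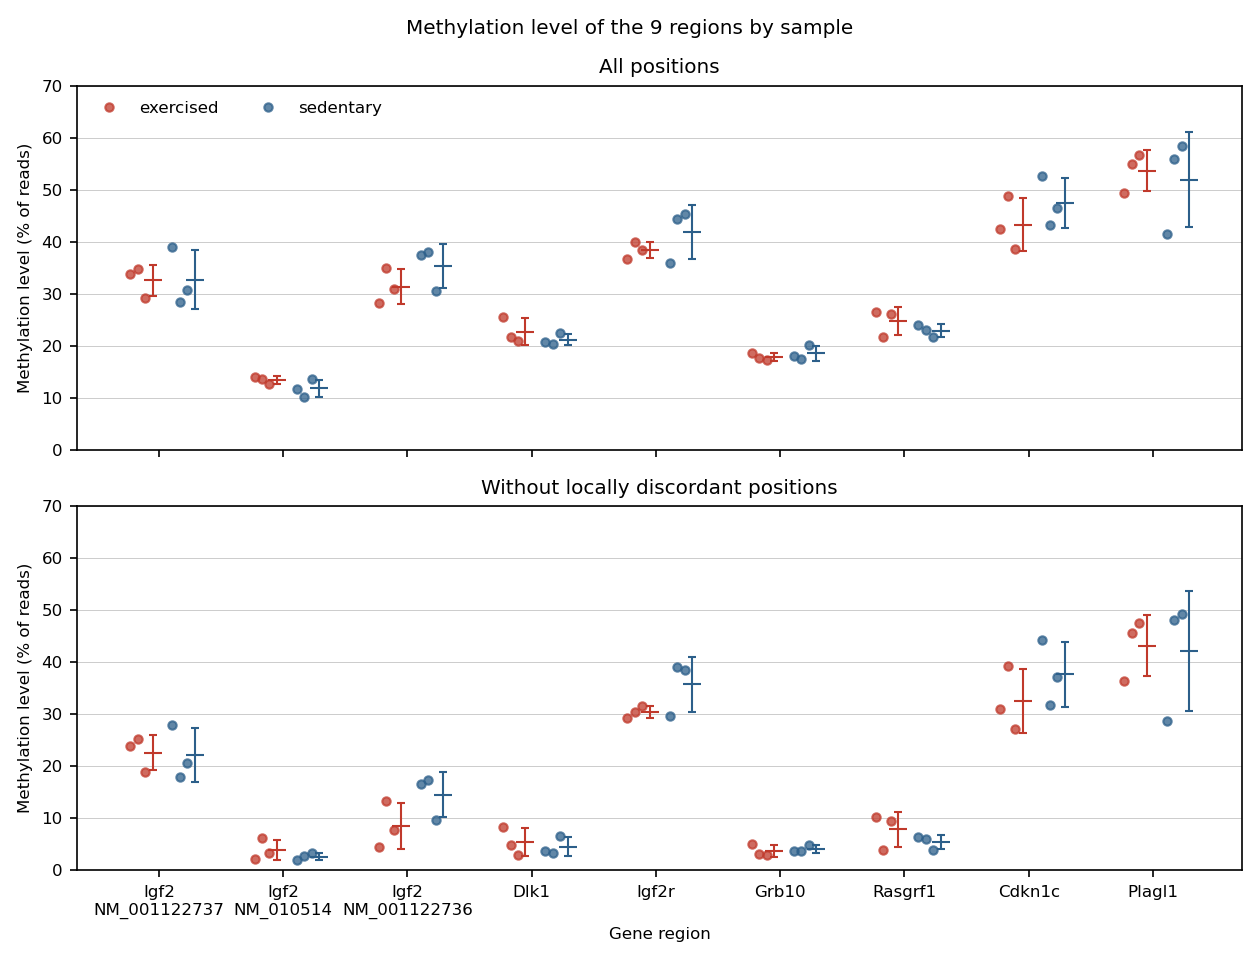
Methylation level (% of reads) of the 9 regions in each sample, with exercised samples in red left of sedentary samples in blue, and the mean and SD of each group (n = 3) as bars. The upper panel uses all positions and the lower panel leaves out locally discordant ones, which lowers every region and leaves Igf2r, Cdkn1c and Plagl1 at 27.2% to 49.3%.

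Igf2 encodes insulin-like growth factor 2, the main fetal growth factor ligand of the set. Its 3 regions lay on chromosome 7, where that of NM_010514 overlapped each of the other two, but no position of the table was listed more than once. The region of NM_001122737 (149842387 to 149845386) stood at 33.8%, 34.9% and 29.3% in exercised samples 1 to 3, against 39.1%, 28.4% and 30.8% in sedentary samples 1 to 3. The groups overlapped, and sedentary sample 1 was the highest of the 6. The exercised mean was 32.7% ± 2.94 and the sedentary mean 32.8% ± 5.61 (SD over 3 samples, as for every ± below).

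That average joined very different stretches of Igf2. The 6 positions at bases 802 to 862, downstream of the placed promoter, were mostly methylated, at 72.5% ± 0.925 in the exercised group, against 79.4% ± 5.77 in the sedentary group. Their distance from the start of NM_001122737 itself is not given here. All 3 exercised samples (71.9% to 73.5%) lay below all 3 sedentary samples (75.8% to 86.1%) there, a difference of -6.94 points. Of the 6 positions 4 were lower and 2 higher in exercised samples. The outer CpGs of this stretch had 1 strand near full methylation (99.6% and 96.6%) beside 56.3% and 58.3% on the other strand. By contrast the promoter stretch at bases 2468 to 2572 stood at 4.04% ± 1.51 in exercised samples, against 2.63% ± 0.754 in sedentary ones over 11 positions that were not discordant. At bases 2915 to 2929 the 5 positions averaged 0.872% ± 1.14 in exercised and 4.68% ± 5.74 in sedentary samples, where sedentary sample 1 was at 11.2% and the other two at or below 2.26%. The lone position at base 1921 had no methylated read in any sample. Its coverage of 10 to 40 reads allows a level of up to 7.50% to 30% per sample (3 counts of the total, counting error only).

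The other Igf2 regions held few positions. The region of NM_010514 (149843710 to 149846709) had 8 positions within 55 bases at a mean coverage of 99.9 reads. It stood at 14.1%, 13.7% and 12.7% in exercised samples, against 11.8%, 10.2% and 13.6% in sedentary samples. The difference of 1.61 points (SE 1.07) was 0.789 points without sedentary sample 2 and 2.48 points without sedentary sample 3. Sedentary sample 3 lay within the exercised range, and without the 1 discordant position the means were 3.90% ± 2.02 (exercised) and 2.62% ± 0.687 (sedentary). The region of NM_001122736 (149845941 to 149848940) had 4 positions. It stood at 28.3%, 35.1% and 30.9% in exercised samples, against 37.5%, 38.0% and 30.5% in sedentary samples, and at 8.47% ± 4.46 (exercised) and 14.6% ± 4.29 (sedentary) without its discordant position. The difference of -3.89 points (SE 3.13) was -2.33 points without exercised sample 1 and -6.31 points without sedentary sample 3. Of those 3 remaining positions, sedentary sample 1 was at 44.0% at base 1029 and sedentary sample 2 at 41.3% at base 1046, while no other value there exceeded 21.4%.

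Dlk1 encodes a transmembrane protein related to Notch ligands that restrains adipocyte differentiation and marks muscle and fat progenitors. Its region (chromosome 12, 110689665 to 110692664) had 22 positions at bases 2150 to 2218. It stood at 25.7%, 21.7% and 20.9% in exercised samples, against 20.8%, 20.4% and 22.5% in sedentary samples. The difference was 1.51 points (SE 1.60), and 0.0538 points without exercised sample 1. That sample also had the lowest median coverage there, 27 reads. Outside 4 discordant positions the region was nearly unmethylated, at 5.43% ± 2.68 in exercised and 4.5% ± 1.82 in sedentary samples, with 16 of 18 positions under 10%.

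Igf2r encodes the receptor that takes up IGF2 for degradation in lysosomes. Its region (chromosome 17, 12961573 to 12964572) stood at 36.8%, 40.1% and 38.5% in exercised samples, against 36.1%, 44.4% and 45.3% in sedentary samples. The groups overlapped because sedentary sample 1 was the lowest of the 6, and the difference of -3.46 points (SE 3.10) was -6.41 points without it and -1.77 points without sedentary sample 3. Without 4 discordant positions the levels were 30.5% ± 1.18 (exercised) and 35.7% ± 5.25 (sedentary). The promoter printed above, at bases 1081 to 1155, stood at 31.2% ± 2.33 in exercised samples, against 36.1% ± 6.35 in sedentary ones over 17 positions. The second stretch, 7 positions at bases 499 to 521 and downstream of the promoter, stood at 26.9% ± 4.76 (exercised) and 34.4% ± 1.76 (sedentary). There the exercised samples (21.4% to 30%) all lay below the sedentary ones (33.1% to 36.4%), in reads that numbered 11 to 43 per position outside base 499 in exercised samples. The single positions went both ways. The first-base positions 506, 516 and 520 were lower in exercised samples (differences of -14.4, -16.7 and -12.9 points, with no overlap between groups). The other 4 were higher, by 14.1 points with no overlap at base 499, and by 11.4, 10.3 and 6.72 points at bases 507, 517 and 521. The level of the stretch sums reads, and the first bases had more of them (median coverage 39, against 26 at the second bases). At the second bases the groups overlapped, at 77.2%, 35.1% and 21.4% in exercised samples, against 40.7%, 41.2% and 23.3% in sedentary ones. The separation of the stretch thus depends on this weighting by reads.

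Over all members, 2 of 17 stretches of at least 3 positions had groups that did not overlap, or 11.8%, beside 8.59% of the 18303 such stretches in the whole table. They were the 2 named above, in Igf2 and Igf2r. In neither were the groups apart on both strands of the paired CpGs.

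Grb10 encodes an adaptor that inhibits signalling from the insulin and IGF1 receptors. Its region (chromosome 11, 11936424 to 11939423) held the most positions, 50, at a mean coverage of 78.9 reads. It stood at 18.7%, 17.7% and 17.2% in exercised samples, against 18.0%, 17.5% and 20.3% in sedentary samples. The samples of both groups lay close together, and the difference of -0.740 points (SE 0.949) was 0.0874 points without sedentary sample 3. Without 8 discordant positions the means were 3.75% ± 1.21 (exercised) and 4.12% ± 0.731 (sedentary), and 36 of 42 positions were under 10%. The stretch at bases 246 to 343, outside the promoter entry, was as low as the promoter, at 2.58% ± 0.270 (exercised) and 2.98% ± 0.889 (sedentary).

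Rasgrf1 encodes an exchange factor that activates Ras proteins and affects postnatal growth. Its region (chromosome 9, 89802613 to 89805612) stood at 26.6%, 21.7% and 26.2% in exercised samples, against 24.1%, 23.1% and 21.7% in sedentary samples. Exercised sample 2 lay below the others of its group, and the difference of 1.83 points (SE 1.74) was 0.926 points without exercised sample 1 and 3.41 points without exercised sample 2. Outside 4 discordant positions the levels were 7.88% ± 3.41 (exercised) and 5.42% ± 1.41 (sedentary), with 16 of 20 positions under 10%. At bases 998 to 1029 the exercised samples 1 and 3 stood at 13.5% and 11.4% and exercised sample 2 at 4.20%, while the sedentary samples stood at 5.63%, 7.10% and 2.69%.

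Cdkn1c encodes p57, an inhibitor of cyclin-dependent kinases that arrests the cell cycle during differentiation, in muscle among other tissues. Its region (chromosome 7, 150645956 to 150648955) stood at 42.5%, 48.9% and 38.7% in exercised samples, against 52.7%, 43.2% and 46.5% in sedentary samples. Exercised sample 2 lay above 2 of the sedentary samples, and the difference of -4.07 points had an SE of 4.07. It was -1.46 points without sedentary sample 1 and -6.84 points without exercised sample 2. Without 4 discordant positions the means were 32.5% ± 6.19 (exercised) and 37.7% ± 6.25 (sedentary). Both main stretches stood at intermediate levels, at 37.2% ± 7.78 (exercised) and 39.7% ± 4.72 (sedentary) for bases 115 to 152, and at 27.9% ± 6.77 (exercised) and 33.1% ± 10.6 (sedentary) for bases 286 to 323. No promoter entry was available for Cdkn1c, so these levels cannot be read as those of its promoter. In the second stretch sedentary sample 1 stood at 45.3% and exercised sample 3 at 20.2%, with the other 4 samples between 26.6% and 33.0%.

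Plagl1 (also called Zac1) encodes a zinc finger transcription factor that regulates other genes of the imprinted growth network. Its region (chromosome 10, 12808594 to 12811593) had 13 positions at bases 2193 to 2253. It stood at 49.4%, 55.0% and 56.8% in exercised samples, against 41.5%, 56.0% and 58.4% in sedentary samples. Sample 1 of each group lay below the other samples of its group, and the difference of 1.78 points (SE 5.73) was -3.46 points without sedentary sample 1. Without 3 discordant positions all 10 remaining positions lay between 30% and 70%, with means of 43.2% ± 5.89 (exercised) and 42.1% ± 11.5 (sedentary). Several lay just above 30%, the lowest at 30.5%, and over all 13 positions the share at 30% to 70% was 76.9%, but 46.2% without sedentary sample 2.

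**Figure D2:**
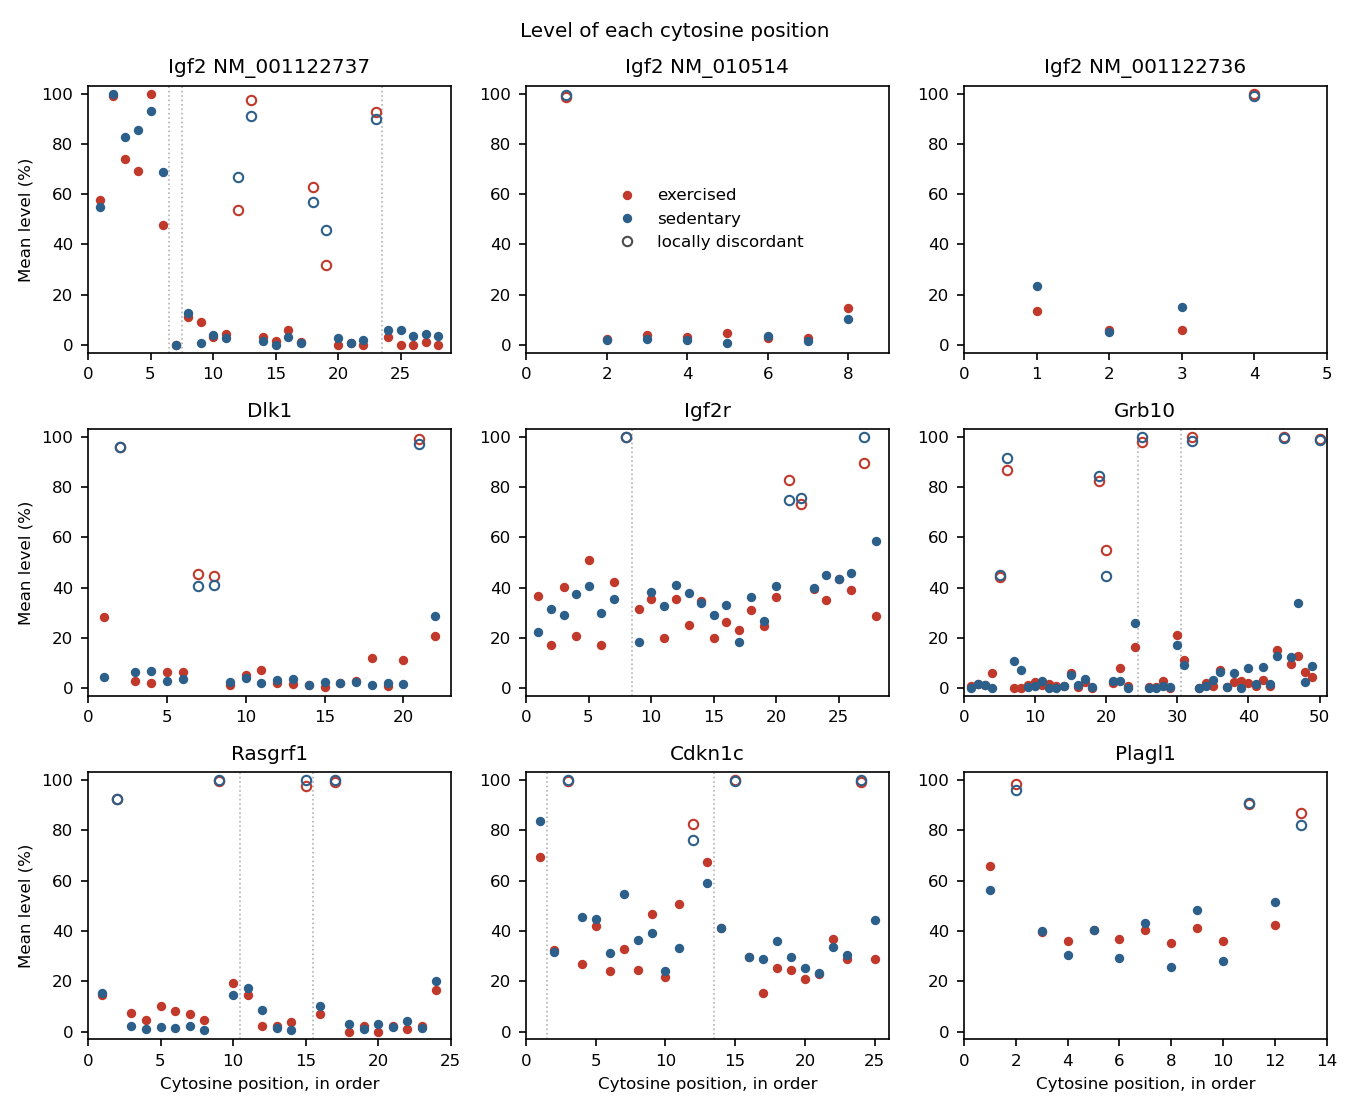
Mean level (%) of every measured cytosine in the 9 regions, in order of position, for exercised (red) and sedentary (blue) samples (n = 3 each). Open circles are locally discordant positions and dotted lines mark gaps of over 100 bp. Igf2r, Cdkn1c and Plagl1 hold a band of intermediate positions, whereas most positions of Dlk1, Grb10 and Rasgrf1 outside the open circles lie under 10%.

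In Igf2r, Cdkn1c and Plagl1 the levels of the 2 strands of a stretch were often far apart within a sample. The 2 cytosines of a CpG were read from opposite strands, and the CpGs of Plagl1 compared here had nearly equal coverage along 1 strand within a sample. In Plagl1 sedentary sample 3, for example, the second-base strand had 2 methylated of 10 reads at each of the 4 CpGs between bases 2199 and 2217. That is 20% with an exact 95% interval of 2.52% to 55.6% (counting error only, since no molecular identifiers are named), while the first-base strand of the same CpGs averaged 55.5%. Within a sample the 4 CpGs of a Plagl1 strand differed by a median SD of 1.86 points (first base) and 1.38 points (second base), whereas the strand means differed between the 6 samples with an SD of 10.6 and 13.4 points. Igf2r bases 506 to 521 and Cdkn1c bases 286 to 323 had the same order on both strands (for Igf2r 4.09 against 9.80 points and 8.38 against 20.1 points). The order was the opposite on the first-base strand of the Igf2r promoter (10.2 against 5.64 points) and on the second-base strand of Cdkn1c bases 115 to 152 (13.5 against 4.89 points).

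The same strand gaps appeared in Igf2r and Cdkn1c. In exercised sample 1 the 3 CpGs of the Igf2r stretch at bases 506 to 521 averaged 10.1% on the first base and 77.2% on the second, a gap of -67.1 points. At its first CpG these were 3 of 32 reads (9.38%, exact interval 1.98% to 25.0%) and 8 of 11 reads (72.7%, exact interval 39.0% to 94.0%). In the Igf2r promoter the gap was 27.6 points in exercised sample 1 and -13.9 points in exercised sample 2. In Cdkn1c at bases 286 to 323 it was 34.4 points in sedentary sample 1 and -20.5 points in sedentary sample 3. Sedentary sample 1, the highest there, had 54.0% on the first-base strand and 19.6% on the other. In the nearly unmethylated regions the gaps were smaller, at most 6.55 points in Dlk1 and 14.2 points in Grb10.

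**Figure D3:**
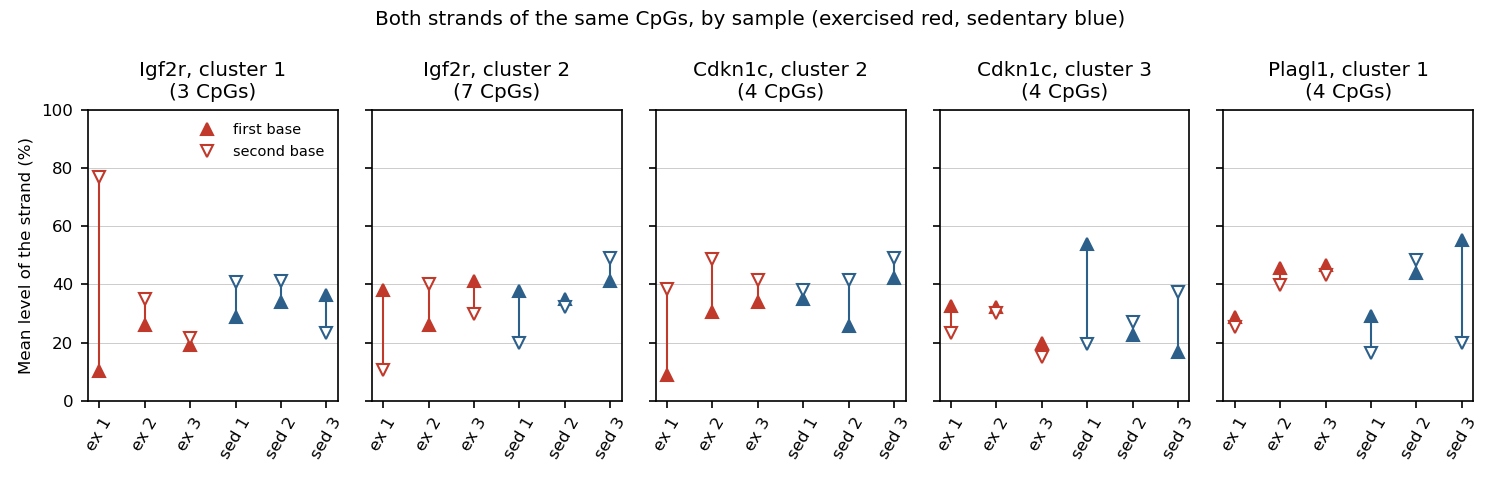
Mean level (%) of the first-base (filled) and second-base (open) strand over the same CpGs, per sample, in 5 stretches of Igf2r, Cdkn1c and Plagl1 (clusters, numbered by position), without discordant positions. Exercised samples are red and sedentary samples blue. The strands of exercised sample 1 stood at 10.1% and 77.2% in the first Igf2r stretch.

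Single positions were tested as well. Of 199 member positions tested by edgeR, 0 had an adjusted p under 0.05 (0% of all 253960 positions), and 5 (2.51%) had an unadjusted p under 0.05, beside 3.32% of all positions. The groups did not overlap at 14 of 202 member positions (6.93%), beside 5.82% of all positions. The 5 positions of low unadjusted p were 3 in Grb10, 1 in Igf2 and 1 in Rasgrf1, all at mean levels under 10%. Grb10 base 292, for instance, was at 0% in all exercised samples and at 5.93%, 4.40% and 12% in sedentary samples, which differs by -7.46 points (edgeR adjusted p = 0.919). By the p-values of the authors' deposited table, member positions numbering 7 had an unadjusted p under 0.05 (3.52%, beside 3.13% of all positions), 3 in Igf2r, 2 in Grb10, 1 in Cdkn1c and 1 in Igf2. The largest of these differences in the authors' deposited table was -30 points at Igf2r base 1155, which lies in the TCGA of the printed promoter.

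Against the rest of the table, the members split by level. Of all member positions 22.3% stood at 30% to 70%, beside 5.83% of all positions. Without discordant positions, 22.6% of the 168 member positions stood at 30% to 70%, beside 1.65% of all positions. All of these were in Plagl1 (10 of 10), Igf2r (14 of 24), Cdkn1c (12 of 21) and the Igf2 region of NM_001122737 (2 of 23). Among 6539 regions with at least 10 such positions, 2 had a share at or above that of Plagl1, 17 at or above that of Igf2r and 18 at or above that of Cdkn1c, counting these regions themselves. Grb10, Dlk1 and Rasgrf1 had a share of 0%. Leaving out discordant positions keeps intermediate positions where their neighbours are intermediate too, so it shapes this ranking, and no ranking was made over all positions. Over all positions the shares were 76.9% for Plagl1, 50% for Igf2r, 48% for Cdkn1c, 9.09% for Dlk1, 4% for Grb10 and 0% for Rasgrf1. In order of region level the members ran from 12.7% (Igf2 NM_010514) through Grb10, Dlk1, Rasgrf1, the other Igf2 regions, Igf2r and Cdkn1c to 52.9% (Plagl1). Igf2r at 40.2% and Cdkn1c at 45.4% had overlapping sample ranges, as did Dlk1 and Rasgrf1.

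**Figure D4:**
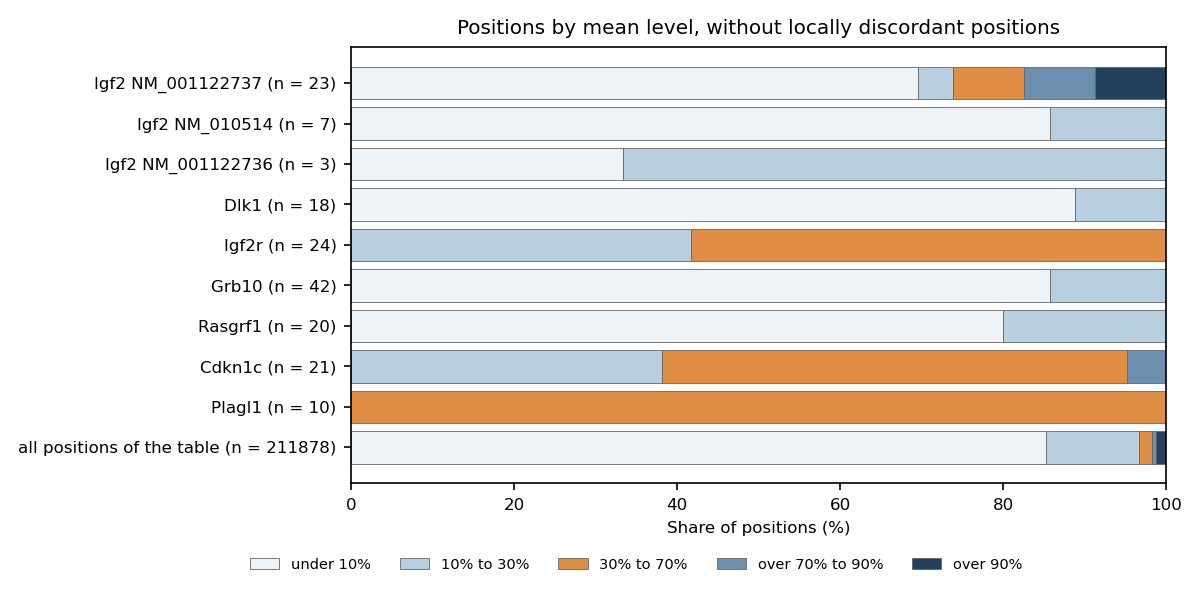
Share of positions (%) by mean level over the 6 samples in each region and in the whole table, without locally discordant positions. The orange class of 30% to 70% takes 100% of Plagl1, 58.3% of Igf2r and 57.1% of Cdkn1c, beside 1.65% of the table.

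By the distance between distributions of position levels, the regions most like the 4 members with at least 10 positions and a level of at least 30% were searched among 7449 others. For Plagl1 they were Zrsr1, an imprinted retrogene, at a mean distance of 3.41 points, and Alpk3 at 4.82 points. For Cdkn1c and Igf2r alike they were Myoz1 and Hand1, at 3.28 and 3.60 points from Cdkn1c and at 6.09 and 6.93 points from Igf2r. For the Igf2 region of NM_001122737 they were Mettl1 and Slc6a5, at 2.19 and 2.78 points. Zrsr1 stood at 52.1% ± 6.57 in exercised samples, against 52.7% ± 1.22 in sedentary ones, and Myoz1 at 49.0% ± 4.57 (exercised) and 50.6% ± 11.6 (sedentary).

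Other imprinted genes showed the same split. Of 35 tested regions of 30 other imprinted genes, 9 of the 34 with positions left after discordant ones were removed had over 50% of those positions at 30% to 70% (26.5%), as did 3 of the 9 member regions, beside 2.13% of all regions. Over all positions, Plagl1 was the 1 member region above 50%. Of these 35 regions 13 were higher and 22 lower in exercised samples (61.0% of all regions were higher), with a median difference of -0.496 points. The smallest unadjusted p in that list was for the Sfmbt2 region of NM_177386 (8 positions), a Polycomb-group gene, at 38.1% ± 1.73 in exercised and 47.0% ± 3.13 in sedentary samples (edgeR adjusted p = 1.0). The other Sfmbt2 region (NM_001198808, 3 positions) stood at 43.5% ± 5.81 (exercised) and 44.7% ± 13.5 (sedentary). The next smallest p was for Trappc9, at 24.1% ± 1.26 (exercised) and 26.7% ± 1.54 (sedentary). Of the 6 tested relatives of the members without imprinting, 0 had over 50% of the positions left at 30% to 70%. Since 2.13% of all regions did, these 6 relatives are too few to show a contrast. Among them the cell cycle inhibitors Cdkn1b and Cdkn1a stood at 19% ± 0.843 (exercised) and 21.2% ± 2.85 (sedentary), and at 25.7% ± 5.96 (exercised) and 22.8% ± 1.45 (sedentary), and without discordant positions at 4.60% and 7.74% over all samples. M6pr, the smaller mannose 6-phosphate receptor, stood at 21.6% ± 4.19 (exercised) and 18.6% ± 3.73 (sedentary).

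Genes of IGF and growth signalling were nearly unmethylated outside discordant positions, with a median of 3.53% over the 28 regions that kept positions, beside 4.47% over all regions. Of 29 tested regions 19 were higher and 10 lower in exercised samples, where 61.0% of all regions were higher, and 0 passed the test. Igfbp4, which encodes an IGF-binding protein, stood at 27.6% ± 1.01 in exercised samples, against 32.0% ± 1.72 in sedentary ones, and Sos1, a Ras exchange factor, at 13.2% ± 1.14 (exercised) and 11.9% ± 0.565 (sedentary). Of 7 regions of imprinting regulators 2 were higher and 5 lower. Among them Dnmt1, the maintenance methyltransferase, stood at 33.8% ± 1.71 (exercised) and 21.8% ± 6.4 (sedentary), and Uhrf1, its partner at replication, at 34.9% ± 1.66 (exercised) and 38.0% ± 2.10 (sedentary), and 0 passed the test. Each had 9 positions, and without discordant ones Dnmt1 stood at 5.36% and Uhrf1 at 20.9% over all samples.

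Total coverage in the table was 9153526 to 18656340 calls per sample, and the median coverage of member positions was 34 in sedentary sample 3 and 55 to 73.5 in the other samples. Of 9 skeletal muscle markers only Des and Acta1 were among the tested regions, Des at 28.8% ± 2.48 (exercised) and 27.3% ± 4.14 (sedentary) and Acta1 at 73.7% ± 18.1 (exercised) and 71.0% ± 28.6 (sedentary). Expression was not measured here, so the labelled tissue could not be checked against defining markers. Differences in the measured markers of other cell types were -2.54 and 0.421 points for the leukocyte genes Coro1a and Ikzf1, -8.03 points for the adipocyte gene Lep, -4.17 and 1.97 points for the endothelial genes Sox17 and Kdr, -5.50 and 1.19 points for the 2 regions of the endothelial gene Egfl7, and 2.01, 2.20 and 0.266 points for the fibroblast genes Fbn1, Tbx15 and Pdgfra. Their part in the member values was not tested.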

How the data were processed

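The authors deposited, for each cytosine position and sample, the methylated fraction (0 to 1) and the coverage count, plus an unadjusted p-value and a difference per position. The submitters' processing notes name Bismark 0.7.7, Bowtie 0.12.9, cutadapt 1.0 and Trim Galore 0.2.5 without their roles, and the build mm9. The sources used here do not give their settings. The deposited coverage was at least 10 in all samples, and fraction times coverage was whole within 0.00236 of a read, which gave methylated counts. Symbols came from a RefSeq table (GRCm38.p6) used for names, which matched 10655 of 10755 transcripts. Coordinates are those of the deposited table, and promoter sequences keep their own GRCm38.p6 coordinates.

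Counts were summed per region with at least 3 positions and tested with edgeR 4.0.16 (R 4.3.3, glmQLFit and glmQLFTest, a term per sample and a group term on methylated counts, no dispersion trend), with Benjamini-Hochberg adjustment over all regions, and likewise per position. The procedure was tested on simulated data with planted shifts larger than any member difference, which does not measure its power for the members. Every pair of samples differed by more than sampling noise (lowest mean chi-square per position 1.64, where noise alone gives 1). Stretches are positions with gaps of at most 100 bp. Results were recomputed with coverage limited to at least 20, with each sample omitted in turn, with a replicate block, with no stand-alone positions (at least 10% where the others within 100 bp have a median under 10%), no discordant positions, merged strands, no minimum of positions and limma 3.58.1 on log2 odds with an offset of 2. The regions named were all member regions, the 2 regions nearest in position levels (1-Wasserstein distance) to each member with at least 10 positions and a level of at least 30%, and, per gene list, the 2 regions of smallest p. The member genes, lists and tests were chosen with earlier results of these data known. Cdkn1a and the marker genes were named outside this rule, after their values were seen.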

Additional observations from a re-analysis of the deposited data

How the results depend on the processing

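Under every alternative, 0 gene regions and 0 positions had an adjusted p under 0.05 (edgeR and limma 3.58.1), and no member region was called. At an unadjusted p under 0.05 in edgeR, Igf2r passed without sedentary sample 1 and Cdkn1c without exercised sample 2, each with an edgeR adjusted p of 1.0, and no other member passed under any alternative. The number of regions at an unadjusted p under 0.05, 237 with all positions and samples, was 438 without stand-alone positions and 376 without locally discordant positions, and ran from 169 to 601 when 1 sample was left out (601 without exercised sample 3). The number of positions at an unadjusted p under 0.05 was 8426, and 4440 to 7142 when 1 sample was left out. limma gave 283 regions and 9068 positions.

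The shared replicate numbers gave no sign of pairing: deviations of same-numbered samples correlated at 0.0190, -0.219 and -0.111. Those of differently numbered samples correlated at -0.101 to 0.221. So few samples cannot settle whether a pairing existed. With the replicate block the counts at an unadjusted p were 204 regions and 1852 positions, and 0 passed the adjustment.

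Of the 9 member differences, 6 kept their direction under every alternative run. The Igf2 difference for NM_001122737 (-0.125 points) turned to 0.640 points without stand-alone and 0.457 points without discordant positions, and ran from -2.30 points (without sedentary sample 2) to 3.04 points (without sedentary sample 1). For Grb10 the range with 1 sample left out was -1.28 to 0.0874 points and for Plagl1 -3.46 to 4.99 points. The share of Igf2r and Cdkn1c positions called intermediate, 50% and 48% with all positions, was 92.9% and 88% for limits of 20% and 80%. The causes were not tested. Coverage limits Plagl1 and Igf2r: sedentary sample 3 had a median of 15 and 20 reads there, and 6 of 13 and 12 of 28 positions had at least 20 reads in every sample.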
